A study of Homo sapiens with 8 samples.

Results

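Early transcript ends are annotated 3′ ends of protein-coding transcripts that lie well inside a gene, upstream of the point where its longest transcripts stop. They were defined on GENCODE release 44 as the 3′ end of any basic transcript of a protein-coding gene that lies 5 kb or more upstream of the gene's most distal basic end and outside the last exon of its longest-span transcript. A poly(A) 3′-sequencing peak was counted as a member when it overlapped by at least 1 bp the window from 200 bp before to 600 bp after such an end. This rule took 2359 peaks in 1656 genes, out of 153624 peaks in the whole list (1.54%). It uses position and no measured value of the peaks. Sequence is not independent of it: AATAAA or ATTAAA lay in the last 50 bp of 50.5% of the annotated early ends, against 14.8% on the opposite strand. The window also limits how far from the end an edge can lie.

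The peak list comes from 8 libraries of Kelly cells, a human neuroblastoma line, and of Kelly E9R cells, a derived line with a point mutation in CDK12 that arose under increasing doses of the CDK12 inhibitor E9. Each line received THZ531, which binds CDK12 and CDK13 covalently and blocks these transcriptional kinases, or the solvent DMSO for 6 h, and the 4 groups hold 2 libraries each. The labels give 400 nM THZ531, whereas the study's methods give a lower dose for these lines. The libraries were merged before peaks were called, so 0 columns hold values per sample: how deeply each library was sequenced is unknown, values have no replicate error, and this list allows no comparison of THZ531 with DMSO at any early end. Coverage tracks per condition were not analysed here.

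Cleavage and polyadenylation cut the nascent RNA and add its poly(A) tail. The reaction is directed by a polyadenylation signal (PAS), most often AATAAA or ATTAAA in the DNA, a short distance before the cut, and by U- or GU-rich sequence after it. A cut inside an intron or in an alternative last exon gives a shorter transcript, which can encode a protein without its C-terminal part. Splicing and U1 snRNP limit such early cuts.

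The peaks that communicate the class most directly carried a PAS motif shortly before the 3′ edge of the peak, and a few are shown here as 30 bases of the gene's strand from GRCh38, 5′ to 3′, with the motif in capitals. They were taken from genes described below, in which the early end lies in an intron of the longest transcript.
CSTF3: caacATTAAAacagtttcaatggtattgga
PAPOLA: taccATTAAActtttgatgatttaatgttg
WDR33: ttcaAATAAAacttattatgtattggtttt
RBBP6: ttgcAATAAAaaatgtttggagtgtatatt
CAMTA1: ttaaAATAAAgtgtaatctgtgttttcatc
DNAJB6: agaaAATAAAtgcgaatgtgttggtgcatt
KMT2C: aggaAATAAAatgtattgagttttaaaaca
ELAVL4: ggagAATAAAaagcaaacaaatgaattgtg
For contrast, 3 members without any motif sat directly before a genomic run of A, to which oligo(dT) can anneal inside a transcript. Their 30 bases start within the peak, and the capitals mark the 25-base A stretch with at most 3 mismatches.
RNF34: aaaaAAAAAAAAAGAAAAAAAAGAAAAAAa
PCMT1: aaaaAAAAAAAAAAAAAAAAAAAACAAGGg
FKBP5: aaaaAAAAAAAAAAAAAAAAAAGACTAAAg
The motif of CSTF3 started 21 bp before the 3′ edge of its peak, that of WDR33 27 bp and that of ELAVL4 20 bp before it. These runs lie on chr11:33141426-33141455 (minus strand) for CSTF3, chr2:127735381-127735410 (minus strand) for WDR33 and chr1:50181276-50181305 (plus strand) for ELAVL4. The RNF34 run lies on chr12:121424713-121424742 (plus strand).

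The first question was whether peaks sat at the annotated ends or only somewhere in their windows. The 3′ edge of the peak, read in the direction of the gene, lay within 50 bp of the nearest annotated early end in 1544 of 2359 members (65.5%, 95% Wilson interval 63.5 to 67.3). In those members the median distance was 1 bp past the annotated end, with quartiles at -2 and 6 bp. Around the 6484 early ends of 3145 genes, the density of edges from 25 bp before to 25 bp after the end was 14.0 per 100 ends in each 25-bp bin. More than 500 bp before or 1000 bp after the end it was 0.480, a 29.2-fold lower density. Around the most distal ends of the same genes the corresponding densities were 22.6 and 0.521. Intervals here and below cover counting error only, since peaks of a gene are not independent and QuantSeq reads carried no molecular identifiers.

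**Figure D1:**
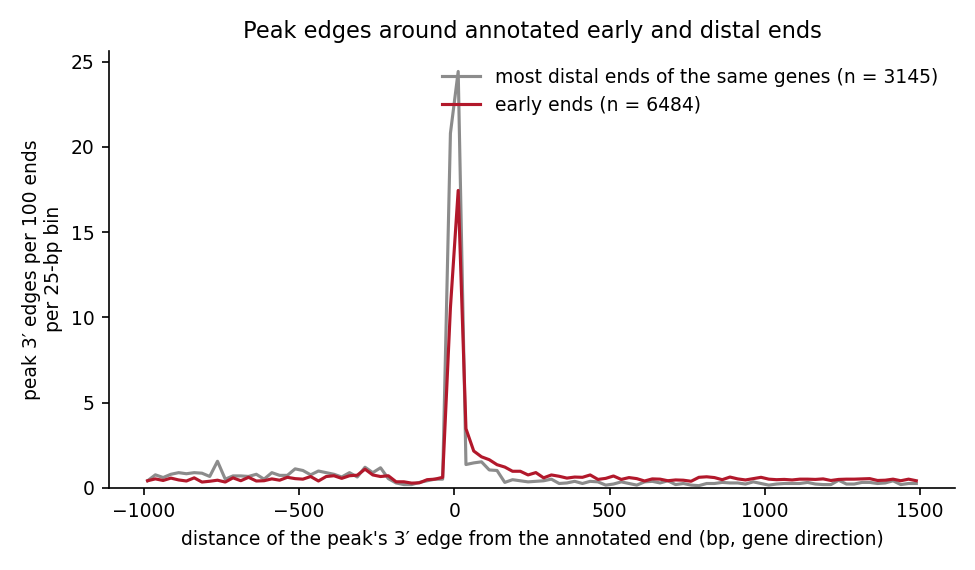
Peak 3′ edges per 100 annotated ends (vertical axis) in 25-bp bins of distance from the end (horizontal axis, gene direction), for the 6484 early ends in red and the 3145 most distal ends of the same genes in grey. Both lines rise sharply at the annotated end, to a lower height for early ends. Past the end the early line falls slowly, from 3.47 per 100 in the bin 25 to 50 bp after it to 1.65 in the bin 100 to 125 bp after it, above its level of 0.480 far from the end.

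Members were weaker than peaks at the remaining ends of coding genes and stronger than unannotated intronic peaks. The remaining ends are called distal ends here, and they include ends in the last exon or under 5 kb from the most distal end. Strength was read as the pileup, the number of extended reads over the summit, which was recovered from the deposited fold and p-value. The median pileup was 14 reads in members (quartiles 9 and 21, highest 79), 19 in 15892 distal-end peaks (quartiles 13 and 28) and 8 in 85054 intronic peaks that touched no annotated exon or end (quartiles 6 and 11). The median fold enrichment was 7.86, 9.17 and 5.95, respectively. The median member was 115 bp wide. The highest pileup in the whole list was 200, the ceiling if each strand and position counts once with reads extended to 100 bp, so a pileup rises less than read number at strong sites.

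The sequence before the edge was then read on the gene's strand, in the 2105 members where all overlapping genes lie on 1 strand. At least 1 of the 12 PAS motifs of the study (AATAAA or ATTAAA, or else AGTAAA or ACTAAA with another second base, CATAAA or GATAAA or TATAAA with another first base, and AAGAAA or AATGAA or AATACA or AATAGA or AATATA with a change farther on) lay in the last 100 bp in 1803 members (85.7%, 95% Wilson interval 84.1 to 87.1). Read from the other side of the same peaks, on the opposite strand, the corresponding window held one in 54.9%. The motif was present on the gene's strand alone in 748 members and on the opposite strand alone in 101 (exact McNemar test, two-sided, p = 8.77e-123). With AATAAA and ATTAAA alone the shares were 70.1% and 20.7%. The 2 windows overlap within a narrow peak, and the opposite-strand share is the background for motifs of this length.

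In motif content, members lay close to distal-end peaks and far from unannotated intronic peaks. The motif share of members was 3.45 points below that of distal-end peaks (89.1%, 95% Newcombe interval of the difference -5.10 to -1.91), and 35.5 points above that of intronic peaks (50.2%, interval 33.9 to 36.9). Among peaks with the edge within 50 bp of an annotated end, 94.3% of members and 94.9% of distal-end peaks carried a motif, and the interval of this difference (-2.01 to 0.596 points) included 0. Members with the edge farther away carried a motif in 68.2%, which was 18.1 points above intronic peaks (interval 14.5 to 21.4). Differences to intronic peaks are not independent of the rule, which takes only annotated ends.

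AATAAA stood at a preferred distance from the edge. In members with the edge within 50 bp of the end, it started 21 to 25 bp before the edge in 25.9 of 100 peaks and 26 to 30 bp before it in 16.6 of 100. Between 51 and 100 bp before the edge no 5-bp bin held it in more than 1.42 of 100 peaks. Distal-end peaks had their maximum in the same bin, at 20.4 of 100, and members with a farther edge reached 10.3 of 100 there.

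**Figure D2:**
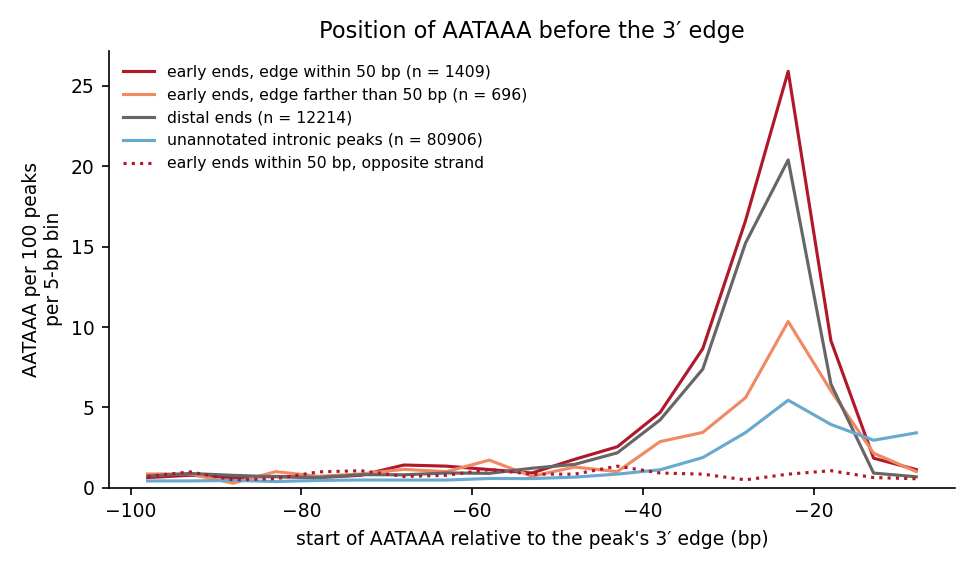
Occurrences of AATAAA per 100 peaks in 5-bp bins (vertical axis) by the distance of its first base from the 3′ edge of the peak (horizontal axis, bp). Members with the edge within 50 bp of the early end (red, n = 1409) peak at 25.9 per 100 in the bin 21 to 25 bp before the edge, as distal-end peaks do (grey), while the opposite strand of the same members (dotted) stays flat.

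Genomic A-rich sequence after the edge, where oligo(dT) can prime inside a transcript, divided the members by position. A run of 6 A or 7 A among 10 bases lay within 50 bp after the edge in 639 of 2105 members (30.4%, interval 28.4 to 32.4) and on the opposite strand in 27.0% (493 against 422 discordant members, exact McNemar test, two-sided, p = 0.0206). The difference passed no threshold without the peaks that the study removed (p = 0.140), with −log10 q of at least 5 (p = 0.332) or for ends 10 kb or more upstream (p = 0.0621), all by the exact McNemar test, and it turned with windows of 100 bp on each side (25.4% against 26.7%). By the rule of 6 A or 7 A among 10 bases, the excess over the opposite strand was not present near the annotated ends. There 20.8% of members were A-rich on the gene's strand and 26.9% on the opposite strand (p = 0.000268, exact McNemar test), whereas members farther than 50 bp from the end were A-rich in 49.7% against 27.2% (p = 1.60e-16, exact McNemar test). Distal-end peaks were A-rich in 18.7% and unannotated intronic peaks in 80.9%. A 25-base A stretch with at most 3 mismatches lay on the gene's strand in 32 of the 2105 members and on the opposite strand in 4 (p = 1.94e-06, exact McNemar test). Within 50 bp of the end these counts were 17 and 3 (p = 0.00258, exact McNemar test). The study removed peaks that had no motif but a 25-base A stretch. This step would take 28 members, the strongest of which was the RNF34 peak printed above with a pileup of 20. Whether A-rich members come from cleavage or from internal priming was not tested.

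The position of the early end within the gene's annotation varied widely. Of the 2359 members, 1227 (52.0%) had an end whose last exon lies wholly inside an intron of the longest transcript, 1051 (44.6%) an end where an exon runs on into the following intron, 23 an end inside an internal or first exon, and 58 an end outside the longest transcript. Motif shares in the first 2 of these groups were 87.1% and 84.6%, and their median pileups were 15 and 13. Where an exon ran on, the annotated end of members within 50 bp lay a median of 571 bp into the intron, against 4133 bp for last exons inside an intron. The 2087 early ends with an edge within 50 bp lay a median of 23.5 kb upstream of the most distal end (quartiles 11.4 and 51.5) and at 57.5% of the way along the longest transcript. Of the 2014 in an intron, 5.26% were in the first intron and 38.3% in the last. The annotation gives the transcripts at these ends a median coding length of 330 amino acids. This was a median of 71.8% of the length of the longest coding sequence that ends later in the same gene. Of the 2087 ends, 765 (36.7%) had under 50% of that length and 422 had a longer coding sequence. Only lengths were compared, and whether the coding sequences overlap was not tested.

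The label of these ends as early needed a check, because some genes have their reference end here. MANE Select is the single transcript per gene that RefSeq and Ensembl chose together as reference. In 1836 members (77.8%) the nearest early end lay more than 600 bp upstream of the MANE Select end. In 464 (19.7%) it lay within 600 bp of it, so that another annotated transcript extends beyond the gene's reference end. In 56 it lay downstream, and 3 members belong to genes without a MANE Select transcript. This division was made after the strongest members were seen. Members at a MANE Select end had a median pileup of 19, against 13 for those upstream of it. Early ends with an edge within 50 bp had a median of 46.5% of the later-ending coding length when they lay upstream of the MANE Select end. The median was 101% when they lay at it. Early end is thus a term of the annotation, and for these 464 members it names an end within 600 bp of the reference transcript's own end. Such ends are called ends at the MANE Select end, or reference ends, throughout.

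Not every annotated early end had a peak. A member overlapped the window of 3322 of the 6484 ends (51.2%, 95% Wilson interval 50.02 to 52.4), and an edge lay within 50 bp of 2087 (32.2%, interval 31.1 to 33.3). Several ends can share a peak, since transcripts of a gene often stop within a few bases of each other. In genes that also had a distal-end peak the share with an edge within 50 bp was 36.3% of 4000 ends, and in the other genes 25.6% of 2484. Ends at the MANE Select end had such an edge in 52.1% and ends upstream of it in 27.9%, a difference of 24.2 points (95% Newcombe interval 21.2 to 27.2).

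The annotated ends themselves differed in sequence. In genes with a distal-end peak, ends with AATAAA or ATTAAA in their last 50 bp had an edge within 50 bp in 54.9% of 1970, and ends without in 18.3% of 2030, a difference of 36.6 points (interval 33.8 to 39.3). Ends inside an internal or first exon rarely had an edge within 50 bp (7 of 175, 4%, interval 1.95 to 8.03), and 7.43% of them carried either hexamer. Last exons inside an intron and exons running on into one differed little, with 37.7% and 36.7% in genes with a distal-end peak (difference 1.04 points, interval -2.06 to 4.12). The transcript support level of GENCODE moved with the same share, from 38.0% at level 1, the best supported, to 9.03% at level 4 and 24.2% at level 5. Ends without a peak in genes with a distal-end peak carried AATAAA or ATTAAA in 36.4% of 1745, against 13.0% on the opposite strand.

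**Figure D3:**
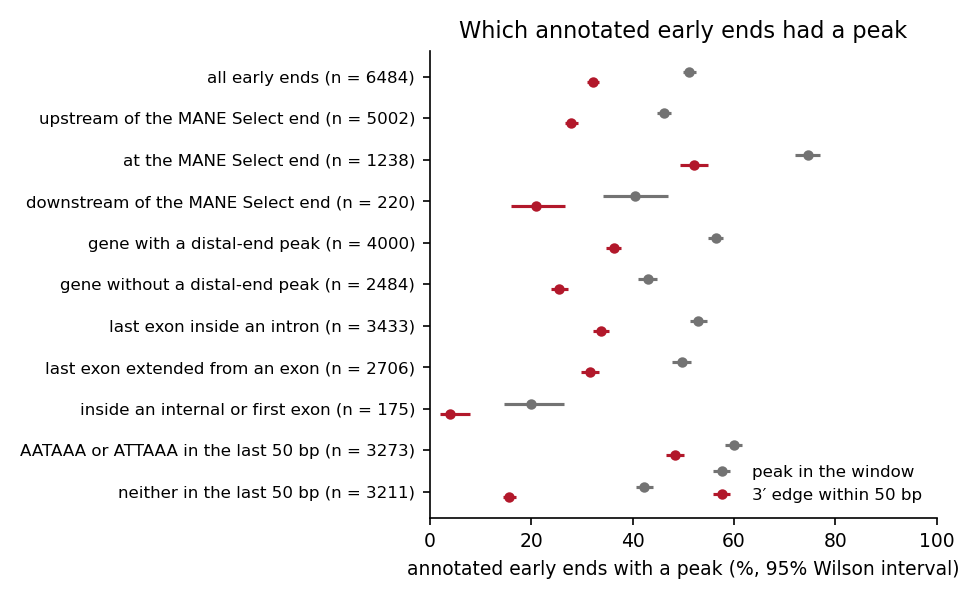
Share of annotated early ends (horizontal axis, percent) with any peak in the window (grey) and with a peak edge within 50 bp (red), for all ends and for groups of ends; bars are 95% Wilson intervals and n is the number of ends. Ends with AATAAA or ATTAAA and ends at the MANE Select end had an edge most often, and ends inside an exon least often.

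The rule's distance of 5 kb did not coincide with a step in the data. Ends 5 to 6 kb upstream of the most distal end had a peak in 163 of 336 cases (48.5%) with a median pileup of 20, and ends 4 to 5 kb upstream, just outside the rule, in 178 of 370 (48.1%) with a median of 18.

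Within a gene, the early end was usually the weaker one. In 1259 genes with both kinds of peak, the strongest member had a lower pileup than the strongest distal-end peak in 822 genes (65.3%), a higher one in 407 and an equal one in 30 (exact sign test over genes, two-sided, p = 8.77e-33). The medians were 14 and 19 reads, and the median difference was -0.45 on the log2 scale (quartiles -1.17 and 0.29). Genes are not replicates, and all values come from the same merged reads. The direction differed by the reference end, a division made after the strongest members were seen. Where the strongest member lay upstream of the MANE Select end, it was lower in 790 and higher in 298 of 1113 genes (median log2 difference -0.58, p = 6.74e-52, exact sign test). Where it lay at the MANE Select end, it was lower in 32 and higher in 105 of 142 genes (median 0.71, p = 2.88e-10, exact sign test). Each gene was grouped by its strongest member, so the grouping used the pileups that were then compared, and the p-values are a description. The share of genes with a higher early end differed between these groups by 47.2 points (95% Newcombe interval 38.9 to 54.2). A further 397 genes with a member (24.0%) had no distal-end peak, and in 203 of them the strongest member was at the MANE Select end.

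**Figure D4:**
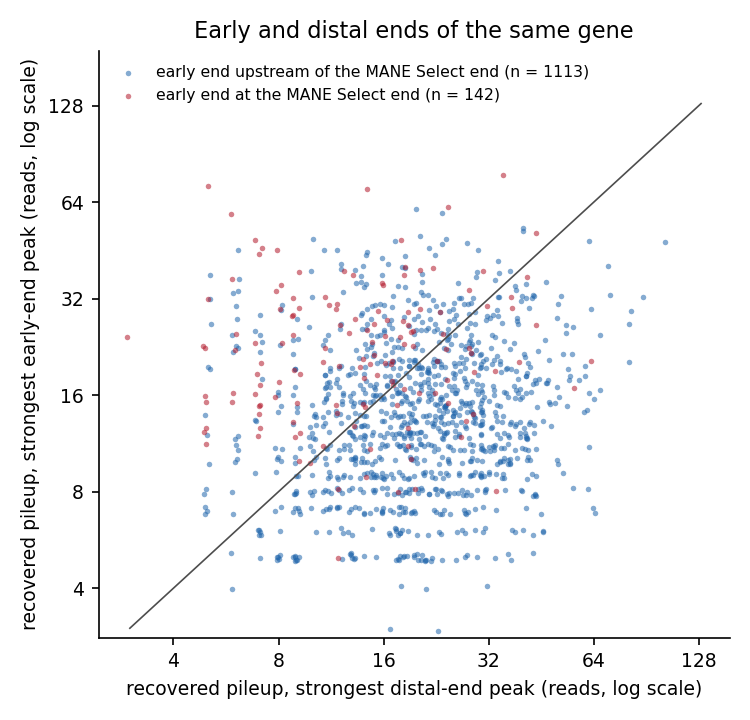
Recovered pileup of the strongest early-end peak (vertical axis, reads, log scale) against that of the strongest distal-end peak of the same gene (horizontal axis, reads, log scale); each point is a gene, slightly displaced so that equal values can be told apart, and the line marks equality. Blue points, with the early end upstream of the MANE Select end (n = 1113), lie mostly below the line, and red points, with the early end at it (n = 142), mostly above.

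For single genes, members were taken that touched no other gene's end and no distal end, carried a motif, had no A-rich sequence after the edge, and had the edge within 50 bp of the annotated end. There were 1069 such clear members in 944 genes. The 12 with the highest pileup, at most 1 per gene, included 10 at the MANE Select end. VRK1, also at its MANE Select end, had the same pileup (52) as the last of the 12, RCC1L, and was left out by its later start position. Ribosomal protein genes led them: RPL34 (chr4:108625057-108625269) with a pileup of 79, RPS24 (chr10:78040546-78040736) with 71 and RPS29 (chr14:49583559-49583746) with 69. These genes have processed pseudogenes elsewhere in the genome, and the mapping kept reads with several possible places, so their pileups are uncertain. The distal ends had 36 reads in RPL34, 5 in RPS24 and 14 in RPS29. STMN1, which encodes the microtubule-destabilizing protein stathmin, had 69 reads at its reference end and HSP90B1, an endoplasmic reticulum chaperone, 63. Neither had a peak at the more distal end. MGST3, a microsomal glutathione transferase, had 62 reads, DAZAP2 58, ADSL, an enzyme of purine synthesis, 58, QDPR, which regenerates tetrahydrobiopterin, 57 and RCC1L 52.

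Only CAMTA1 and DNAJB6 among these 12 had an early end upstream of the reference end. CAMTA1, a calmodulin-binding transcription activator, had a pileup of 62 at an end in intron 3 of 22 (chr1:6871836-6872049). This end lies 898 kb upstream of the gene's most distal end, whose strongest peak had 20 reads, and its annotated transcript encodes 80 of up to 1673 amino acids. Another 2 clear members of CAMTA1 in the same intron had 11 and 9 reads. DNAJB6, a co-chaperone of the J-domain family with a short and a long form, had 59 reads at an end in intron 8 of 9 (chr7:157386118-157386322), which ends a form of 241 amino acids. The end of the 326-residue form had 23.

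Several genes held more than 1 early end in use. The genes with the most clear members were VPS53 and ASPH with 4 each, and KDM5C, RNASEH2B, CAMTA1 and CC2D2A with 3 each (ties were ordered by highest pileup). VPS53 encodes a subunit of a complex that tethers endosome-derived vesicles at the Golgi. Its 4 peaks lay in introns 4, 7, 12 and 17 of 21, with 10, 9, 16 and 11 reads, and the strongest distal-end peak had 17. In ASPH, which encodes aspartate beta-hydroxylase and the shorter proteins junctin and junctate, the 4 peaks had 6 to 11 reads and no distal-end peak was found. CC2D2A, a protein of the ciliary transition zone, had 37 reads in intron 9 of 37 and 9 in each of 2 peaks in intron 5, against 14 at the distal end. In KDM5C, a histone demethylase, and RNASEH2B, a subunit of ribonuclease H2, all clear members lay in the last intron at or downstream of the reference end. They had 43, 14 and 11 reads in KDM5C and 40, 24 and 15 in RNASEH2B.

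The ratio of early to distal pileup spanned both directions. Among genes with a clear member and at least 10 reads at both ends, the highest log2 ratios were 2.30 in RPS29, 2.06 in GOSR2, 1.91 in ATP5MG, 1.66 in ABHD12, and 1.65 in POLE2 and CHURC1. GOSR2, a SNARE of the Golgi, had 46 reads at an end whose transcript encodes 147 of up to 257 amino acids, against 11 at the distal end. POLE2, a subunit of DNA polymerase epsilon, had 44 reads at an end in intron 3 of 17, and its distal-end peak had 14. The transcript at this early end encodes 96 of up to 527 amino acids. ATP5MG, a subunit of the mitochondrial ATP synthase, had 45 against 12 reads and CHURC1 44 against 14. The reference ends of RPS29 and ABHD12 are the early ones. At the other extreme stood MSI2, a neural RNA-binding protein, with 11 against 63 reads (log2 ratio -2.52), the kinase gene MAPKAPK5 with 10 against 51 (-2.35), CDC23, a subunit of the anaphase-promoting complex, with 17 against 79 (-2.22) and FANCI, a Fanconi anemia protein, with 14 against 62 (-2.15). The early ends of these 4 genes all lay upstream of the reference end. A stronger member of CDC23 that was not clear had 20 reads (log2 ratio -1.98).

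Genes of the cleavage and polyadenylation machinery itself carried early ends. Of 24 listed factors, 6 had an annotated early end, beside 3145 of all 19389 coding genes, a base that applies to every list below. A clear member was found in 4 of the 6, beside 944 of the 3145 coding genes with an early end (30.02%). CSTF3 encodes a scaffold subunit of cleavage stimulation factor. It had 25 reads at an end in intron 4 of 21 (chr11:33141431-33141605), whose transcript encodes 44 of up to 749 amino acids, and 23 at its distal end. PAPOLA, the poly(A) polymerase, had 22 reads in intron 7 of 21 against 44 at the distal end. WDR33, a subunit that takes part in binding the AAUAAA signal, had 20 in intron 7 of 21 against 24. RBBP6 had 19 in intron 3 of 17 against 18, and the transcript there encodes 118 of up to 1792 amino acids, the short form that holds little more than the ubiquitin-like domain. All 6 listed genes with an early end had a distal-end peak, beside 66.6% of all genes with an early end.

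Genes of chromatin regulators, which place or read marks on histones and DNA, had clear members in 10 genes. Of 34 genes, 19 had an early end, 14 a member (73.7%, beside 52.7% of all genes with an early end) and 10 a clear member (52.6%, beside 30.02%), and 17 of the 19 had a distal-end peak (89.5%, beside 66.6%). KMT2C, a histone H3 lysine methyltransferase, had 30 reads in intron 26 of 58 (chr7:152202865-152203106) and 19 at its distal end. ASXL1, a Polycomb-associated protein, had 27 reads in intron 4 of 12 and no distal-end peak. In SETDB1, CHD2, NSD3, EHMT1, NSD2, DNMT3A and TET2 the early end had fewer reads than the distal one. Their early pileups ran from 26 in SETDB1 to 8 in TET2. The lowest ratio of these 7 was that of DNMT3A, a DNA methyltransferase, with 14 against 61 reads.

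Genes of neuronal function also had peaks at early ends. Of 30 adhesion and axon guidance genes, 9 had an early end, 8 a member (88.9%, beside 52.7% of all genes with an early end) and 5 a clear member (55.6%, beside 30.02%). All 9 had a distal-end peak, beside 66.6% of all genes with an early end. NRP2 and NRP1 are receptors for semaphorins and VEGF that also have soluble forms. NRP2 had 26 reads in intron 15 of 16 against 23 at the distal end, and its transcript there encodes 901 of up to 931 amino acids. NRP1 had 16 in intron 13 of 17 against 20, and its transcript there encodes 644 of up to 923. Whether either end gives a soluble form was not tested. The netrin receptor UNC5C had 21 against 27 and the adhesion protein NFASC 15 against 23. Of 38 RNA-binding proteins, 9 had an early end, 7 a member (77.8%, beside 52.7%) and 4 a clear member (44.4%, beside 30.02%), and 7 had a distal-end peak (77.8%, beside 66.6%). HNRNPA2B1 had 49 reads at its reference end and no distal-end peak, and it too has processed pseudogenes. The neuronal proteins ELAVL4 and NOVA1 had 20 against 34 and 18 against 16 reads, and DICER1, the ribonuclease that makes microRNAs, had 12 against 31. A stronger member of DICER1 that was not clear had 14 reads.

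Receptor tyrosine kinases, which pass growth factor signals into the cell, made up another list. Of 35 listed names, 34 matched and 19 had an early end; 8 of the 19 had a member (42.1%, beside 52.7% of all genes with an early end) and 6 a clear one (31.6%, beside 30.02%). Of these 19 genes, 14 had a distal-end peak (73.7%, beside 66.6%). PTK7 had 17 reads against 24 at the distal end. NTRK3 had 7 reads in intron 14 of 18, the end of a form of 612 of 864 amino acids, against 6. FGFR2 had 11 against 41, MET 11 against 26, and ROR2 had 10 reads at its reference end without a distal-end peak.

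Of 26 genes listed for a known shorter form, 18 had an early end and 11 a member (61.1%, beside 52.7% of all genes with an early end). A distal-end peak was found in 15 of the 18 (83.3%, beside 66.6%). A clear member was found in 8 (44.4%, beside 30.02%), among them CDC42, CSTF3, DICER1, FGFR2, MET and RBBP6. CDC42, a small GTPase, had 12 reads at an end in intron 5 of 5, whose coding sequence is as long as that of the later-ending form (191 amino acids), and 31 at the strongest of its later ends, which is not the most distal one. Of 150 DNA damage response genes matched from the study's list, 36 had an early end, 26 a member (72.2%, beside 52.7% of all genes with an early end) and 16 a clear member (44.4%, beside 30.02%), with a median pileup of 15.5 beside 15 over all genes with one. Of these 36 genes, 30 (83.3%) had a distal-end peak, beside 66.6% of all genes with an early end. The study chose that list for its own question on these cells, and all lists here were chosen with earlier results known, so their counts are a description.

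**Figure D5:**
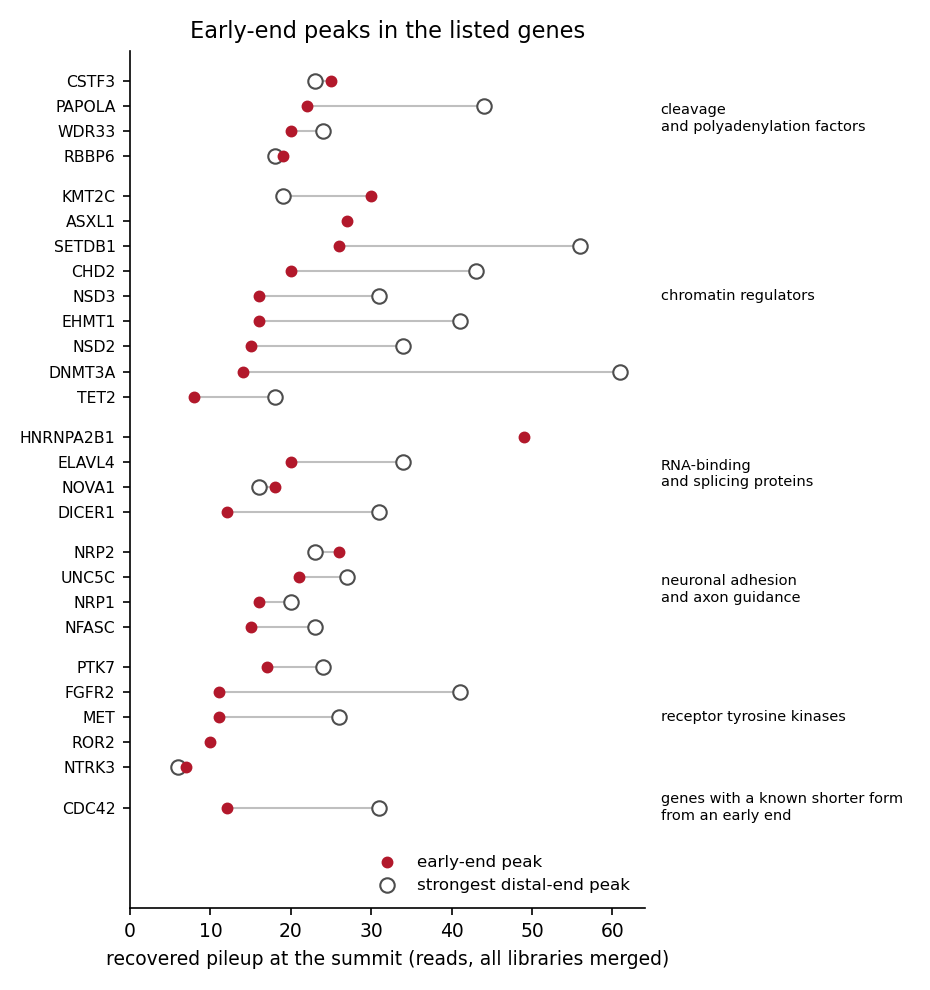
Recovered pileup at the summit (horizontal axis, reads, all libraries merged) of the strongest clear early-end peak (red) and of the strongest distal-end peak (open circle) in the listed genes with a clear member that are reported here, by list; a gene without an open circle had no distal-end peak. Early ends of cleavage factors lie at 19 to 25 reads, and those of receptor tyrosine kinases at 7 to 17.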

How the data were processed

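Poly(A) 3′-sequencing reads of 8 libraries were trimmed, mapped with STAR 2.5.1b to GRCh38 with ERCC spike-ins and merged by the authors before MACS2 2.1.1 called peaks (reads extended to 100 bp), with versions from the submitters' processing notes. The authors deposited for each peak a score, a fold enrichment (pileup + 1 over background + 1), and the −log10 p-value and −log10 q-value at the summit, without strand or values per sample; coverage tracks were not used here. The q threshold and the handling of duplicates are not given in the sources used here. Pileups were recovered as the whole number that satisfies both fold and p-value, to 0.001 on the −log10 scale, in 100% of peaks; the step was checked on simulated data. No peak crossed a chromosome end (0), so GENCODE release 44 and GRCh38 sequence were used, with coordinates counted from 1. Readthrough transcripts were left out; the study used an older release.

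Classes were kept apart in the order early end, remaining (distal) end of a coding gene, and intron without exon or end. Tests were the exact McNemar test and the exact sign test, with Wilson and Newcombe intervals at 95% (Python 3.11.15, scipy 1.17.1, statsmodels 0.14.6). Named genes were the 12 strongest clear members, the 6 genes with most of them, the 6 highest and 4 lowest early to distal ratios (both at least 10 reads), and listed genes with a clear member, at most 10 per list. The members and lists were chosen with earlier results of these data known. Of 161 names in the study's DNA damage response list, 150 matched a coding gene. Alternatives changed the motif set and windows, the A-rich rule, the peak set, the end window, the distance and the measure of strength. Some genes and sequences that the rule names are not reported here.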

Additional observations from a re-analysis of the deposited data

How the results depend on the processing

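No paired analysis was possible because the peaks were called on merged reads and carry no values per library, and for the same reason no library could be left out. When the 100 bp outside the 5′ edge were read instead, the PAS motif was found in 36.8% of members on the gene's strand and 57.0% on the opposite strand, a reversed direction in a window that by construction lies outside the place of the signal. The other 11 motif alternatives kept direction and threshold (68.2% to 94.3%). The A-rich excess over the opposite strand did not hold, and several alternatives no longer passed the threshold. The share was 29.5% without peaks that the study's rule removes (p = 0.140, exact McNemar test). With −log10 q of at least 5 the share was 28.4% (p = 0.332, exact McNemar test). For ends 10 kb or more upstream the share was 30.5% (p = 0.0621, exact McNemar test). It turned below the opposite strand with windows of 100 bp on each side (25.4% against 26.7%) and, in an alternative chosen after seeing the data, within 50 bp of the end (20.8%). With windows of 100 bp on each side the motif difference to distal-end peaks was -1.62 points, that to intronic peaks 39.5 points, the share of edges within 50 bp 79.3% and the share of ends with a peak 44.2%. The difference to intronic peaks was 32.6 points under the study's removal rule. With −log10 q of at least 5, 68.1% of edges lay within 50 bp and 47.3% of ends had a peak, a share that was 43.9% for members touching no other window and, in another alternative added later, 46.1% for ends upstream of the MANE Select end. The sign test kept its direction and side of the threshold in 11 alternatives (62.4% to 71.0% of genes with a lower early end). The counts of members and of genes stayed within 1.5 times, at 1908 to 2361 and 1335 to 1658.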
